A study of Homo sapiens with 4 samples.

Results

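The zinc-dependent histone deacetylase genes HDAC1 to HDAC10 were examined in cells labelled NB4, in controls without GNE-987 and after treatment with it. The 10 genes were taken by symbol, through the Ensembl gene identifiers of the expression table and GENCODE v44, from 58735 genes in all, and all 10 had a row. RNA-seq had been run on 4 libraries. The control group held 2 libraries labelled as controls of GNE-987, and whether these cells received the solvent is not stated in their labels. The GNE-987 group held 2 libraries from cells that had received GNE-987 at 25 nM over 24 h. This compound is a degrader that links the BET bromodomain proteins to a ubiquitin ligase. Both groups carry the same label of a single cell line, NB4, which was established from acute promyelocytic leukemia. The labels do not say whether the libraries of a group came from separate cultures, so the spread between them may be technical.

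Histone deacetylases remove acetyl groups from lysines of histones and of other proteins. The class I enzymes HDAC1, HDAC2 and HDAC3 are nuclear and work inside multi-subunit corepressor complexes, whereas HDAC8 works outside those complexes. The class IIa enzymes HDAC4, HDAC5, HDAC7 and HDAC9 have little deacetylase activity of their own, bind MEF2 transcription factors and leave the nucleus when phosphorylated. The class IIb enzymes HDAC6 and HDAC10 have mostly cytoplasmic substrates, tubulin for HDAC6 and polyamines for HDAC10. In acute promyelocytic leukemia the PML-RARA fusion protein is known to recruit corepressors that carry these enzymes.

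The markers of the labelled cells were checked first. MPO, the myeloperoxidase of promyelocyte granules, was close to absent in the controls (0.0246 and 0 FPKM) and rose to 11.8 and 11.3 FPKM with GNE-987, while the granule proteases ELANE and CTSG were listed at 0 in both controls. Other granule genes were low but detected there, PRTN3 at 0.341 and 0.710 FPKM and AZU1 at 2.07 and 2.10 FPKM. FPKM is fragments scaled by exon length and by library size. In contrast, 12 of 13 erythroid markers were above 1 FPKM in both controls, with GATA1, an erythroid transcription factor, at 124 and 122 FPKM. The granule genes of the labelled cell type were thus at or near 0 (MPO, ELANE and CTSG) or low in the controls, and the cells are named here only by their label. With GNE-987, 6 of the 12 tested erythroid markers were called higher, among them the heme synthesis gene ALAS2 and 5 globin genes, whose near-identical copies may share reads, and 5 were called lower, among them GATA1 at 15.1 and 12.5 FPKM. The summed FPKM of the 13 erythroid markers ranged from 724 to 731 in the controls and from 919 to 1042 with GNE-987. The sum of 10 promyelocyte and granulocyte markers went from 9.62 to 10.9 FPKM in the controls to 87.7 to 89.3 FPKM with GNE-987, and 4 of its 7 tested genes were called higher and 1 (CD33) lower. Most of the treated sum was ITGAM, an integrin of myeloid cells, which rose from 0 and 0.0318 to 56.8 and 58.0 FPKM. CTSG was listed at 0 in every library. Most of the control sum was SPI1, at 7.52 and 5.68 FPKM. SPI1 went the other way, to 4.80 and 3.23 FPKM with GNE-987, with no overlap between the groups, and was not called. Summed megakaryocyte markers (7 genes) were at 1.48 to 1.52 FPKM in the controls and 9.25 to 9.69 FPKM with GNE-987. T cell markers (6 genes) summed to 17.1 to 18.2 and 21.5 to 21.95 FPKM. Most of this was CD3D (16.2 and 15.3, then 20.5 and 21.5 FPKM), and 4 of the 6 were under 1 FPKM in all libraries. B cell markers (5 genes) summed to 0.936 to 0.950 and 23.97 to 25.2 FPKM. Most of the treated B cell sum was CD79A (23.4 and 21.4 FPKM), and 3 of the 5 were under 1 FPKM in all libraries. These marker levels moved together with the treatment, and their part in the deacetylase values was not tested. In bulk RNA, fewer cells of a type and less RNA per cell cannot be told apart.

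Reads on genes, as recovered from the FPKM steps, numbered 19302254 and 19107900 for the controls against 12327906 and 12830267 for the treated cells. The deposited values were scaled to 23024012 and 22120718 reads in the controls but to 8360488 and 8826052 reads with GNE-987. Scaling to the total of recovered reads instead moved the median log2 fold change of all tested genes from 0.17 to -0.57, and scaling to GAPDH moved it to -1.59. GAPDH, a glycolytic enzyme often used as a reference, was itself at 398 and 432 FPKM in the controls and 1501 and 1499 FPKM with GNE-987. Each deacetylase is therefore given on the deposited scale. For some of them the distance from the all-gene median or the share of the family within a library is added. Neither of these depends much on a constant factor per library.

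Of the 10 deacetylase genes, 8 averaged 0.5 FPKM or more across the 4 libraries and were tested, and 3 of them, HDAC7, HDAC2 and HDAC10, were lower with GNE-987 by more than 2-fold at an unadjusted P under 0.05 (limma). By the same call, 24.9% of all 16668 tested genes were lower and 33.6% were higher, and among the 10996 tested protein-coding genes 31.7% were lower and 24% were higher. The 3 of 8 is thus near the background of protein-coding genes. No deacetylase was called higher, by limma on the FPKM values or by limma-voom on recovered reads. At an unadjusted P under 0.05 without the fold limit, 1 of the 8 was positive (HDAC1) and 5 were negative. All 6 also had an adjusted P under that limit. The share of all tested genes that pass without the fold limit was not counted, so these counts are not read as a trait of the family. The median log2 fold change was -0.59 over the 8 tested deacetylases, 0.17 over all tested genes and -0.29 over tested protein-coding genes. Both GNE-987 libraries lay below both controls for 5 of the 8 and above both for 1, and these shares were 41.6% and 47.5% of all tested genes. The smallest P value that an exact permutation test can reach with 2 libraries against 2 is 0.333, so no single-gene permutation test could pass.

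**Figure D1:**
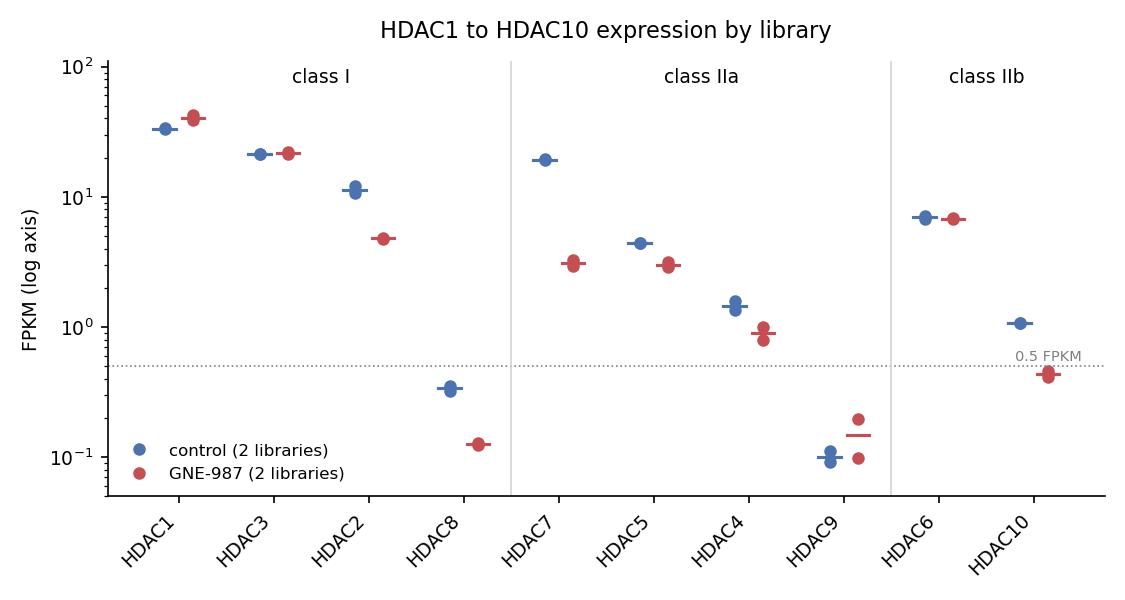
FPKM (log axis) of each deacetylase gene in the 2 control and 2 GNE-987 libraries, by class. Points are libraries, short bars are group means, and the dotted line is the 0.5 FPKM limit that the mean over the 4 libraries had to reach to be tested. HDAC7 dropped from 19.6 and 19.0 to 2.94 and 3.28 FPKM, HDAC3 and HDAC6 had overlapping groups, and HDAC8 and HDAC9 stayed under the limit in every library.

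Among the class I enzymes are HDAC1 and HDAC2, close paralogs that share the same complexes, and HDAC2 fell while HDAC1 was not called. HDAC1 (ENSG00000116478, chr1:32292083-32333635, plus strand) was the most abundant deacetylase per length, at 32.9 and 33.6 FPKM in the controls and 42.3 and 38.7 FPKM with GNE-987. Both treated libraries were above both controls, by a log2 fold change of 0.28 ± 0.0613 (SE, n = 2 per group; limma adjusted P = 0.0164), which is under the 2-fold limit. HDAC2 (ENSG00000196591, chr6:113933028-114011308, minus strand) stood at 11.998 and 10.7 FPKM in the controls and 4.74 and 4.83 FPKM with GNE-987. It was 2.37-fold lower, with no overlap between the groups and a log2 fold change of -1.23 ± 0.0837 (limma adjusted P = 0.000678). Within each library, the FPKM of HDAC1 was 2.74 and 3.13 times that of HDAC2 in the controls and 8.91 and 8.01 times with GNE-987.

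The promoter sequences of these paralogs and of HDAC7, the deacetylase with the largest fold change, are shown because they are the tested members with the highest and the lowest log2 fold change and the paralog pair whose ratio differed between the groups. They are the RefSeq windows upstream of the start site (GRCh38.p14), 5′ to 3′ on the strand of the gene, cut to the bases that lie in no exon of GENCODE v44, and capitals mark matches to the motifs named after them. The stretches are chr1:32291833-32292082 (plus strand) for HDAC1, chr6:113971158-113971398 (minus strand) for HDAC2 and chr12:47819981-47820153 (minus strand) for HDAC7.
HDAC1: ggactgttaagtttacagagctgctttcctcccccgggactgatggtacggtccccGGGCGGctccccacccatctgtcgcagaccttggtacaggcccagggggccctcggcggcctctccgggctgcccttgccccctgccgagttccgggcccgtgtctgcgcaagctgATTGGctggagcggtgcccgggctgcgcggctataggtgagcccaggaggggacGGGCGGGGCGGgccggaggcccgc
HDAC2: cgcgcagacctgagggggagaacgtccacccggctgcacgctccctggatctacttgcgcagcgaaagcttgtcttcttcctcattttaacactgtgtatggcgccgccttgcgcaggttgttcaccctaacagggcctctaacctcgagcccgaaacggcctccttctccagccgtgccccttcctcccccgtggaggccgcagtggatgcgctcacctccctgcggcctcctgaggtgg
HDAC7: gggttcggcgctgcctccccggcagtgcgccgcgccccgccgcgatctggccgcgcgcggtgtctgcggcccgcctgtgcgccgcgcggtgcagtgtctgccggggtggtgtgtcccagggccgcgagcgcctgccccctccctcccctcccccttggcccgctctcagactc
The full windows of 250 bases were searched on both strands for the GC box GGGCGG, the CCAAT box CCAAT, the GATA motif GATAA and the E-box CACGTG. The HDAC1 window held 3 GC boxes, 2 of which share a base, and 1 CCAAT box, written here on the other strand. The HDAC2 window held none of the 4 motifs. The HDAC7 window held 1 GATA motif, in the annotated exon that is not printed. The HDAC2 and HDAC7 windows lie inside the annotated spans of their genes, and sequence at the upstream ends of those spans was not searched. Of 35116 RefSeq promoter windows of that length, 42.6% held a GC box, 32% a CCAAT box, 20.4% a GATA motif and 6.34% an E-box. Windows were found for 9 of the 10 deacetylases, 19 windows in all, and of these windows 8 held a GC box, 7 a CCAAT box, 5 a GATA motif and 1 an E-box. Some windows of HDAC6 and of HDAC9 overlap, so the same site can count more than once. By gene, 6 of the 9 had a window with a GC box, 4 with a CCAAT box, 3 with a GATA motif and 1 with an E-box. A match of letters is a description and not a binding site.

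HDAC3 (ENSG00000171720, chr5:141620876-141636849, minus strand), the catalytic subunit of the NCoR complex, stood at 21.3 and 21.4 FPKM in the controls and 21.2 and 22.1 FPKM with GNE-987. The groups overlapped, and the log2 fold change was 0.02 ± 0.0492 (limma adjusted P = 0.710). HDAC3 was 1.77 and 2.00 times as abundant as HDAC2 in the controls and 4.47 and 4.58 times with GNE-987. HDAC8 (ENSG00000147099, chrX:72329516-72573101, minus strand), known to deacetylate the cohesin subunit SMC3, was low throughout, at 0.325 and 0.350 FPKM in the controls and 0.125 and 0.128 FPKM with GNE-987. Those values rest on 172 and 178 reads against 24 and 26 reads, and both treated libraries were below both controls. HDAC8 was under the limit for testing, and with no limit on level its log2 fold change was -0.95 ± 0.254 (limma adjusted P = 0.0534).

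The class IIa enzymes held the largest fall of the family. HDAC7 (ENSG00000061273, chr12:47782722-47833132, minus strand), known for repressing MEF2 targets in developing lymphocytes and in endothelium, stood at 19.6 and 19.0 FPKM in the controls and 2.94 and 3.28 FPKM with GNE-987. It was 6.21-fold lower, at a log2 fold change of -2.60 ± 0.0811 (limma adjusted P = 0.000182), and the 4471 and 4181 reads of the controls stood against 244 and 287 reads. The difference between groups was many times the spread within each of them. HDAC7 lay 2.77 below the all-gene median on the log2 scale, at percentile 3.47 of the 16668 tested genes. Over every alternative processing its percentile stayed between 0.870, with a pseudocount of 1, and 9.65, with quantile normalization.

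HDAC5 (ENSG00000108840, chr17:44076746-44123702, minus strand), a signal-responsive repressor of MEF2, stood at 4.38 and 4.44 FPKM in the controls and 2.87 and 3.17 FPKM with GNE-987. Both treated libraries were lower, at a log2 fold change of -0.53 ± 0.0936 (limma adjusted P = 0.00860), short of the 2-fold limit. Of its exon bases, 23.97% lie opposite G6PC3, a glucose-6-phosphatase gene on the other strand at 10.4 and 8.94 FPKM in the controls and 16.6 and 15.9 FPKM with GNE-987. The sources do not say whether reads were counted by strand, so reads of the overlap could belong to either gene. HDAC4 (ENSG00000068024, chr2:239048168-239401654, minus strand), a regulator of muscle and cartilage genes through MEF2 and RUNX2, stood at 1.35 and 1.57 FPKM in the controls and 0.993 and 0.797 FPKM with GNE-987. The log2 fold change was -0.65 ± 0.193 (limma adjusted P = 0.0391), again under the 2-fold limit and with no overlap between groups. HDAC5 and HDAC4 passed the limit when libraries were scaled to total recovered reads, at -1.30 and -1.37, and HDAC4 also with quantile normalization, at -1.80. From the all-gene median HDAC5 and HDAC4 were at -0.71 and -0.83 on the deposited scale and at -0.72 and -0.80 with total reads. With quantile normalization HDAC4 was at -1.56 from that median.

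HDAC9 (ENSG00000048052, chr7:18086949-19002416, plus strand), the remaining class IIa enzyme, was at 0.111 and 0.0913 FPKM in the controls and 0.0995 and 0.195 FPKM with GNE-987. The groups overlapped on 43, 34, 14 and 29 reads, and a difference was not detectable at this depth. Without a limit on level its log2 fold change was 0.27 ± 0.330 (limma adjusted P = 0.522). In order of control level the class IIa genes were HDAC7, HDAC5, HDAC4 and HDAC9, and with GNE-987 HDAC7 and HDAC5 no longer stood apart, since HDAC7 at 2.94 and 3.28 FPKM overlapped HDAC5 at 2.87 and 3.17 FPKM.

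In class IIb, HDAC6 (ENSG00000094631, chrX:48801377-48824982, plus strand), the tubulin deacetylase, was at 6.71 and 7.18 FPKM in the controls and 6.84 and 6.74 FPKM with GNE-987. Its groups overlapped, and the log2 fold change was -0.03 ± 0.0702 (limma adjusted P = 0.703). HDAC10 (ENSG00000100429, chr22:50245183-50251405, minus strand) stood at 1.07 and 1.08 FPKM in the controls and 0.411 and 0.458 FPKM with GNE-987. It was 2.47-fold lower, at a log2 fold change of -1.14 ± 0.196 (limma adjusted P = 0.00823), on 122 and 118 reads against 17 and 20 reads. A pseudocount of 1 or a test whose null is a 2-fold change removed that call, and at a limit of 1 FPKM the gene was not tested. The log2 fold change was larger with other scalings, at -1.81 with total reads, -2.66 with quantile normalization and -2.71 with GAPDH. These scalings also moved the median of all tested genes. From that median HDAC10 was at -1.31 (deposited), -1.24 (total reads), -1.11 (GAPDH) and -2.42 (quantile normalization). MAPK12, a stress-activated kinase gene on the same strand, covers 55.8% of the HDAC10 exon bases, so the reads that belong to HDAC10 are uncertain. MAPK12 was at 9.14 and 9.30 FPKM in the controls and 5.43 and 5.42 FPKM with GNE-987.

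Across the whole family, the order of levels per length in the controls was HDAC1, HDAC3, HDAC7, HDAC2, HDAC6, HDAC5, HDAC4, HDAC10, HDAC8 and HDAC9. Each neighbour in that order was separated in both libraries. With GNE-987 the order was HDAC1, HDAC3, HDAC6, HDAC2, HDAC7 and HDAC5 together, HDAC4, HDAC10, and HDAC8 and HDAC9 together, these last being within the spread of HDAC9. FPKM depends on the exon length used, which ranged from 3963 bases for HDAC1 to 22985 bases for HDAC8 as recovered from the values, so the order between genes depends on the annotation. Between libraries the length cancels.

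The composition of the family differed between the groups. The summed FPKM of the 10 genes was 99.6 and 99.5 in the controls and 82.5 and 80.4 with GNE-987. Class I genes made up 66.7% and 66.4% of that sum in the controls and 82.8% and 81.8% with GNE-987. The class I sum itself was 66.5 and 66.1 FPKM in the controls and 68.3 and 65.8 FPKM with GNE-987, so these groups overlapped. The class IIa share was 25.5% and 25.3% in the controls and 8.38% and 9.25% with GNE-987, and the class IIb share was 7.81% and 8.30% against 8.79% and 8.95%. The shares of class I and class IIa thus differed between the groups by far more than the libraries of a group differed.

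HDAC7 held 19.6% and 19.1% of the summed FPKM in the controls and 3.57% and 4.07% with GNE-987, a difference of -15.6 percentage points. HDAC1 held 33.0% and 33.8% in the controls and 51.2% and 48.1% with GNE-987, and HDAC3 held 21.3% and 21.5% against 25.7% and 27.5%. HDAC2 held 12.04% and 10.8% in the controls and 5.75% and 6.01% with GNE-987. Shares of a sum are tied to each other, so a lower share of HDAC7 raises the others. As a ratio within each library, HDAC1 was 1.68 and 1.76 times HDAC7 in the controls and 14.4 and 11.8 times with GNE-987. HDAC3 was 1.09 and 1.12 times HDAC7 in the controls and 7.20 and 6.76 times with GNE-987. The ratio of HDAC1 to HDAC3 was much steadier, at 1.55 and 1.57 in the controls and 2.00 and 1.75 with GNE-987. Counted as reads, without dividing by length, HDAC7 held 26.0% and 25.8% of the family in the controls and 6.05% and 6.81% with GNE-987. Of all reads on genes, the 10 deacetylases together held 0.0889% and 0.0848% in the controls and 0.0327% and 0.0329% with GNE-987.

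**Figure D2:**
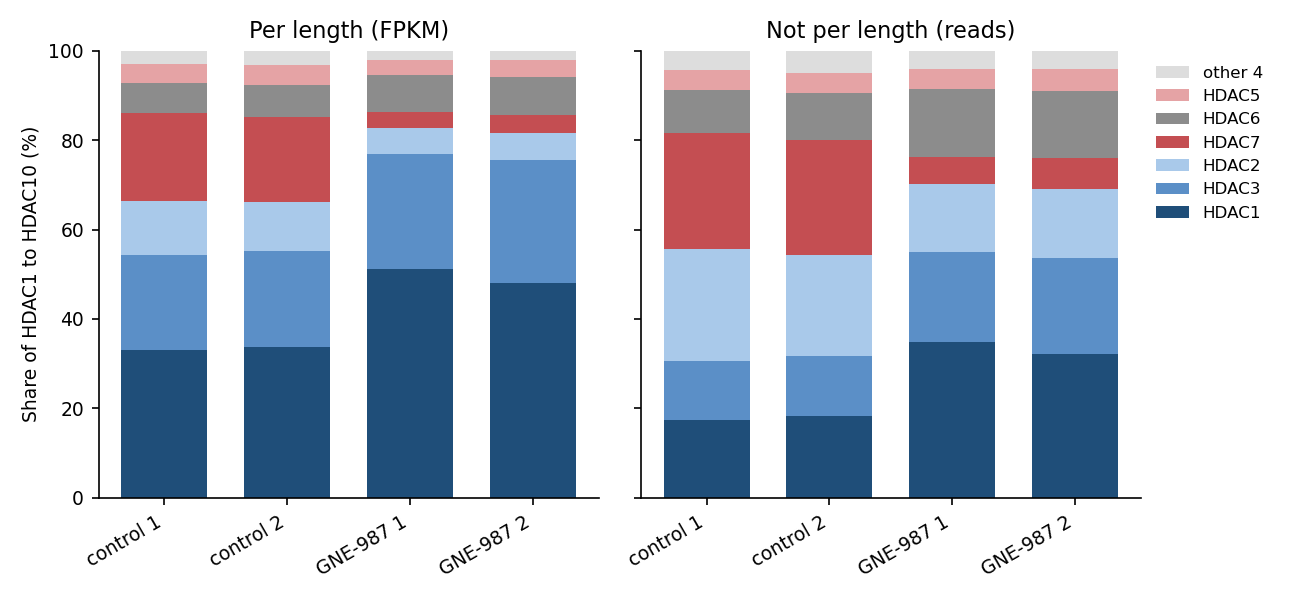
Share of each deacetylase gene in the family total (%) in each of the 4 libraries, from FPKM on the left and from recovered reads on the right. The pale top segment holds HDAC4, HDAC8, HDAC9 and HDAC10. The HDAC7 segment shrank from 19.6% and 19.1% to 3.57% and 4.07% of summed FPKM, and HDAC1 took 51.2% and 48.1% with GNE-987.

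The direction of HDAC1 and HDAC3 depended on the scaling. HDAC1 was at 0.28 on the deposited scale, -0.15 with quantile normalization, -0.50 with scaling to total reads and -1.57 with scaling to GAPDH, and HDAC3 was at 0.02, -0.16, -0.76 and -1.82. With GAPDH scaling all 8 tested deacetylases were called lower, and with total reads 5 were. Relative to the all-gene median of each scaling, HDAC1 was at 0.11 (deposited), 0.07 (total reads) and 0.03 (GAPDH), HDAC2 was at -1.40, -1.43 and -1.46, and HDAC7 was at -2.77, -2.79 and -2.82. Total reads and GAPDH apply a single factor to each library, which shifts all genes nearly alike, so these distances are close by construction. Quantile normalization does not, and with it HDAC1 was at 0.09, HDAC3 at 0.08, HDAC6 at 0.24, HDAC2 at -1.02 and HDAC7 at -2.51 from the median. On the deposited scale, 7 of the 8 tested deacetylases were below the all-gene median and 1, HDAC1, was above it, whereas with quantile normalization 5 were below. The all-gene median (0.17) was above that of tested protein-coding genes (-0.29) on the deposited scale. HDAC3 (0.02) and HDAC6 (-0.03) lay above the protein-coding median, as did HDAC1. With no limit on level HDAC1 was at -0.07 from the median.

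**Figure D3:**
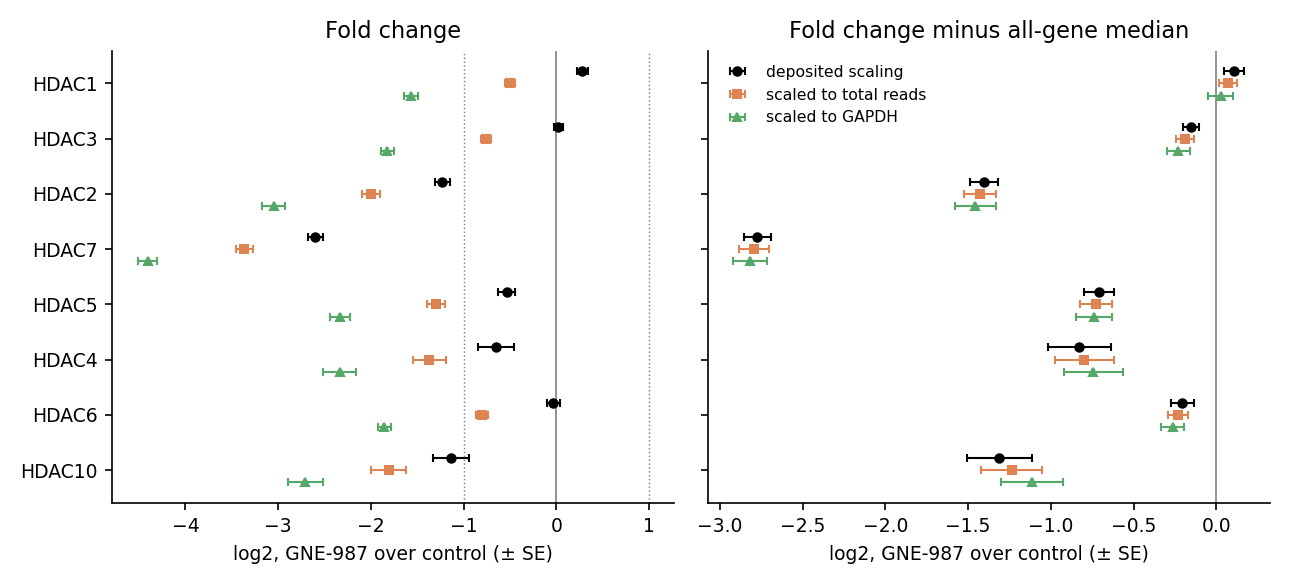
Log2 fold change (GNE-987 over control) of the 8 tested deacetylase genes under 3 scalings of the libraries, as fitted on the left and after subtracting the median of all tested genes on the right. Bars are standard errors from limma with 2 libraries per group, and dotted lines mark a 2-fold change. HDAC1 goes from 0.28 to -1.57 on the left but lies between 0.03 and 0.11 on the right, where HDAC7 lies between -2.82 and -2.77.

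The deacetylases act through partner proteins, and 7 lists of such genes, 80 genes in all, were examined for the same contrast. Of the 70 that were tested, 26 were lower and 6 were higher (limma, the call above), beside 24.9% and 33.6% of all tested genes and 31.7% and 24% of protein-coding ones. With scaling to total reads the counts were 42 lower and 3 higher, and with GAPDH they were 61 and 1. Where a list below has 5 or fewer calls in a direction, all are named, and names outside the rule for named genes were chosen after their values were seen.

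The CoREST list, the complex in which HDAC1 or HDAC2 sits beside the demethylase KDM1A, had 8 of 11 tested genes called lower and 0 higher, and a median log2 fold change of -1.51. At an unadjusted P under 0.05 alone (limma), 10 were negative and 0 positive, a limit at which the share of all tested genes was not counted. With limma-voom on recovered reads, 9 were called lower and 0 higher. KDM1A, which removes methyl groups from histone lysines, was at 37.5 and 37.5 FPKM in the controls and 18.1 and 17.7 FPKM with GNE-987 (log2 fold change -1.06 ± 0.0436, adjusted P = 0.000254), a change that did not pass when the test's null was itself a 2-fold change. The largest fall of the list was that of ZMYM3, a zinc finger subunit, from 9.09 and 9.97 to 1.44 and 1.34 FPKM (-2.69 ± 0.0979). GSE1, another subunit of the complex, fell from 30.8 and 32.1 to 10.8 and 11.2 FPKM (-1.51 ± 0.0520).

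The NCoR list, the partners of HDAC3 and the route by which class IIa enzymes reach it, had 3 of 5 tested genes lower, NCOR1, TBL1X and TBL1XR1, and a median of -1.55. NCOR1, a corepressor scaffold, fell from 7.11 and 8.42 to 2.52 and 2.63 FPKM (-1.55 ± 0.115, limma adjusted P = 0.000824). TBL1X, a WD-repeat subunit, fell from 7.87 and 8.18 to 1.47 and 1.45 FPKM (-2.38 ± 0.0842). HDAC3, the enzyme of this complex, had overlapping groups on the same scale.

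The SIN3 list had 5 of 14 tested genes lower (SINHCAF, SAP30, SIN3B, SUDS3 and SAP30L) and 3 higher (ARID4B, ING2 and ARID4A), with a median of -0.75. These counts are near the 31.7% lower and 24% higher of tested protein-coding genes. The scaffold paralogs differed. SIN3B fell from 8.50 and 9.50 to 2.89 and 2.57 FPKM (-1.69 ± 0.108, limma adjusted P = 0.000588), whereas SIN3A was at 4.57 and 4.72 FPKM in the controls and 4.49 and 4.58 FPKM with GNE-987 (-0.04 ± 0.0741). The largest fall was that of SINHCAF, a SIN3-associated subunit, from 8.62 and 9.38 to 1.94 and 1.71 FPKM (-2.24 ± 0.106). The largest rise was that of ARID4B, a chromatin-binding subunit, from 3.53 and 3.67 to 13.4 and 13.9 FPKM (1.89 ± 0.0676), which was not called with GAPDH scaling (0.07).

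The NuRD list, the remodelling complex that also holds HDAC1 and HDAC2, had 4 of 13 tested genes lower (MTA3, MBD2, RBBP4 and MTA2) and 2 higher (CHD5 and GATAD2B), with a median of -0.62. The count lower is near the 31.7% of tested protein-coding genes that were lower. MTA3, a scaffold subunit, fell from 2.42 and 2.04 to 0.441 and 0.332 FPKM (-2.26 ± 0.215, limma adjusted P = 0.00150). CHD5, a remodelling ATPase known mainly from neurons, rose from 0.0307 and 0.0274 to 3.60 and 3.01 FPKM, on 7 and 6 reads against 298 and 263 reads (4.72 ± 0.233). CHD4, the ATPase most widely used in the complex, was at 3.25 and 3.07 FPKM in the controls and 3.68 and 3.32 FPKM with GNE-987 (0.14 ± 0.102), and its value was negative with scaling to total reads (-0.62) and to GAPDH (-1.66). In MiDAC, a mitotic complex of HDAC1 and HDAC2, 2 of 3 tested genes were lower (DNTTIP1 and TRERF1), with a median of -1.48. At a limit of 1 FPKM the MiDAC median was -0.49 from the all-gene median, against -1.65 at the limit of 0.5 FPKM. Its scaffold DNTTIP1 fell from 7.80 and 7.03 to 3.11 and 2.17 FPKM (-1.48 ± 0.203).

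The class IIa partners, the MEF2 factors, the kinases that phosphorylate these enzymes and the adaptors that hold them in the cytoplasm, had 4 of 16 tested genes lower (MEF2C, PRKD3, PRKD2 and SIK3) and 1 higher (YWHAH), with a median of -0.25. The count lower is near the 24.9% of all tested genes and under the 31.7% of protein-coding ones. Another 8 of the 24 genes were under the limit for testing. MEF2C, a transcription factor that class IIa enzymes bind, fell from 6.16 and 6.36 to 2.00 and 2.11 FPKM (-1.56 ± 0.0854, limma adjusted P = 0.000429). MEF2D, its paralog, was at 3.83 and 3.55 FPKM in the controls and 5.23 and 5.67 FPKM with GNE-987 (0.55 ± 0.0920), and was negative with scaling to total reads (-0.22) and to GAPDH (-1.26). YWHAH, a phosphoserine-binding adaptor, rose from 50.7 and 49.0 to 120.2 and 118.5 FPKM (1.26 ± 0.0403), was under the limit with total reads (0.48) and with quantile normalization (0.51), and was negative with GAPDH (-0.59).

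The deacetylases outside HDAC1 to HDAC10, which are HDAC11 of class IV and the NAD-dependent sirtuins, were called neither higher nor lower in any of 8 tested genes, with a median log2 fold change of 0.08. At an unadjusted P under 0.05 alone (limma), 2 were positive and 2 negative, again without a count of all tested genes beside them. With limma-voom, 0 were called in either direction. SIRT1, a nuclear sirtuin, was at 6.23 and 6.44 FPKM in the controls and 4.63 and 4.56 FPKM with GNE-987 (-0.46 ± 0.0694, limma adjusted P = 0.00569). HDAC11 was low, at 0.650 and 0.659 FPKM in the controls and 0.634 and 0.322 FPKM with GNE-987, on 79, 77, 28 and 15 reads (-0.44 ± 0.362). The HDAC11 value rested on single libraries, at -0.84 without GNE-987 replicate 1 and -0.04 without GNE-987 replicate 2. Both SIRT1 and HDAC11 passed the call with total reads (-1.22 and -1.09) and with GAPDH (-2.27 and -1.98), and HDAC11 also with quantile normalization (-2.11). Total reads, GAPDH and quantile normalization also moved the median of all tested genes, to -0.57, -1.59 and -0.24.

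**Figure D4:**
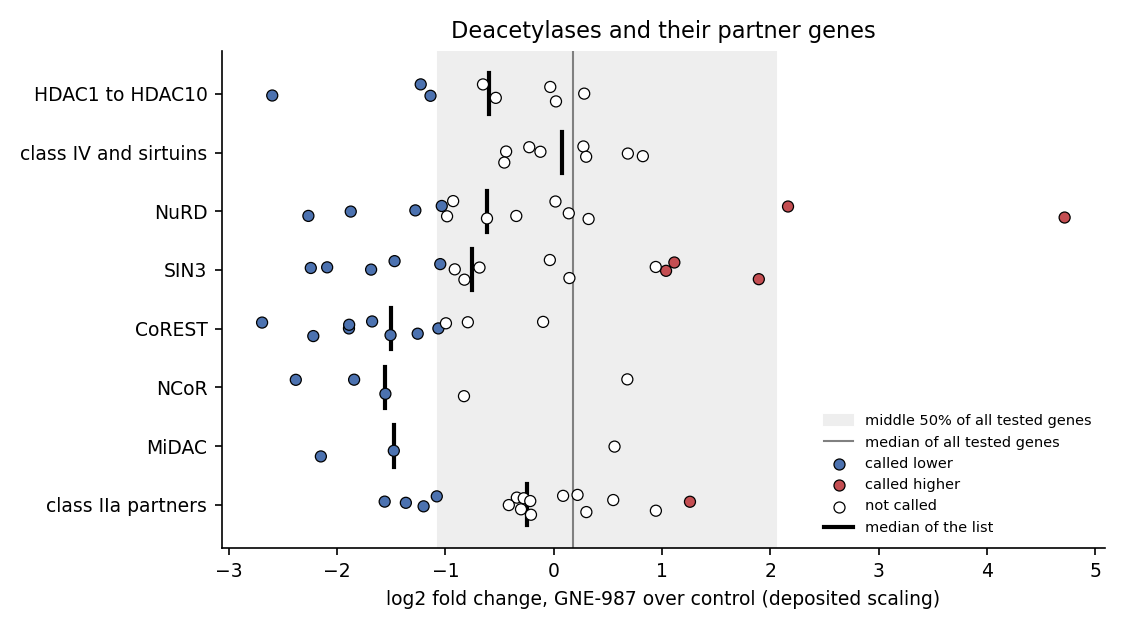
Log2 fold change (GNE-987 over control, deposited scaling) of each tested gene of the deacetylases and of 7 partner lists, as fitted with limma on 2 libraries per group. Points are genes, filled where called, with black bars for list medians and grey for the median (0.17) and middle 50% of all tested genes (-1.07 to 2.05). The medians of CoREST (-1.51), NCoR (-1.55) and MiDAC (-1.48, 3 genes) lie left of the grey band, and that of the deacetylases (-0.59) lies within it. Tested protein-coding genes had a lower median (-0.29), and their middle 50% was not computed.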

How the data were processed

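The authors mapped the RNA-seq reads with HISAT (HISAT2 2.0.5 and hg38 per the submitters' processing notes) and deposited FPKM values for 58735 genes in 4 libraries made with the TruSeq RNA kit. The counting program and the annotation are not given in the sources used here. Samples were grouped by their labels, and dose and time follow the study's text.

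Here, log2(FPKM + 0.1) was tested with limma 3.58.1 in R 4.3.3 (empirical Bayes with trend, no replicate block) for genes that averaged 0.5 FPKM or more. A call needed an unadjusted P under 0.05 and a fitted log2 fold change beyond 1 in either direction, after the study's thresholds of P and of a 2-fold change. Folds written as 2.37-fold, 6.21-fold and 2.47-fold lower are ratios of mean FPKM and differ from the fitted values. Adjusted P values are Benjamini-Hochberg values over all tested genes. Fold changes of log2(FPKM + 0.1) understate those of low genes, and P values measure only the spread between these libraries, which may be technical.

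The steps of the FPKM values gave whole reads (within 0.01 of a whole number) at GENCODE v44 exon lengths for 52.99% of the 32895 genes above 0 in any library. For most others the nearest whole length was used. The recovered reads gave the depth and the alternatives with total reads and limma-voom. The scale of the deposited values was within 0.2% of median-ratio size factors. Both steps were tested on simulated data. For the read recovery, simulated lengths stayed nearer to the annotated ones than those of some genes here, such as HDAC6 (10602 against 14472 bases).

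The 10 genes and the lists were chosen with earlier results of these data known. Named were all 10 genes, the markers, GAPDH, genes that overlap a member, the largest called rise and fall of each list at a mean of at least 1 FPKM, and KDM1A, NCOR1, SIN3A, SIN3B, CHD4, MEF2C, MEF2D, GSE1, SIRT1 and HDAC11. Some genes that this rule names are not reported here. Alternatives were pseudocounts of 1 and 0.01, no filter or 1 FPKM, other scalings, limma-voom, adjusted P values, a test with a 2-fold change as its null, a replicate block and leaving out each library.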

Additional observations from a re-analysis of the deposited data

How the results depend on the processing

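No deacetylase was called higher under any alternative, and the count called lower was 3 in the main setting, 5 with scaling to total reads, 8 with GAPDH scaling and 2 to 4 otherwise. With GAPDH scaling 9738 of all genes were lower and 3031 higher, against 4148 and 5602, with total reads 6661 were lower and 4175 higher, and with no filter 8757 were higher. Of the partner genes 61 were lower and 1 higher with GAPDH, and 42 and 3 with total reads. Among the deacetylases, values that changed sign were HDAC1 (GAPDH -1.57, quantile -0.15, total reads -0.50) and HDAC3 (GAPDH -1.82, quantile -0.16, total reads -0.76). HDAC3 also changed sign without GNE-987 replicate 2 (-0.011) but not without GNE-987 replicate 1 (0.053). HDAC6 changed sign without control replicate 2 (0.016) but not without control replicate 1 (-0.079). The named partner genes that changed sign were CHD4 (GAPDH -1.66, total reads -0.62), MEF2D (GAPDH -1.26, total reads -0.22) and YWHAH (GAPDH -0.59).

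Leaving out each library in turn gave 3 deacetylases lower and 0 higher each time, 4978 to 5374 genes higher and 3714 to 4101 lower in all, and 5 to 6 partner genes higher and 24 to 27 lower. In these fits the lone library of a group is assumed to vary like the others.

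The differences in share (GNE-987 minus control, percentage points) depended on the measure. From recovered reads they were -8.33 for HDAC2, 7.53 for HDAC3, -0.15 for HDAC4, 0.25 for HDAC5 (against -0.72), 5.03 for HDAC6, -19.5 for HDAC7, -0.44 for HDAC8, 0.29 for HDAC9 and -0.27 for HDAC10. From summed FPKM without HDAC1 they were 20.7 for HDAC3, -0.013 for HDAC4, 0.71 for HDAC5, 6.11 for HDAC6, -21.5 for HDAC7 and 0.21 for HDAC9.

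Same-numbered libraries did not deviate together (correlation 0.0054). The labels do not say whether the numbers pair the libraries, and a correlation from so few libraries cannot decide it. With the replicate number as a block, 3 deacetylases were lower and 0 higher, as were 4186 and 5667 of all genes and 26 and 6 partner genes. The causes of these changes were not tested. Depth limits HDAC8, HDAC9 and HDAC10, the last with 17 and 20 reads in the GNE-987 libraries.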
